A study of Homo sapiens with 4 samples.

Results

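miR-7 was followed through its 3 named mature strands: the main strand miR-7-5p and the copy-specific minor strands miR-7-1-3p and miR-7-2-3p. They were taken by name from a table of 1345 mature miRNAs, and the family was chosen by the measured level of miR-7-5p, among the 5 most abundant, so that level is given as a description with no test. The 4 small-RNA libraries came from HCT116, a human colorectal carcinoma cell line, in which doxycycline switches on a short hairpin RNA (shRNA) that targets SAE2, the catalytic subunit of the enzyme activating SUMO for attachment to proteins. The libraries marked plus (2, from the sh1 and sh2 lines) were read as induced, with 3 days of doxycycline per the labels' protocol, and the libraries marked minus (2, from the same lines) as not induced. The protocol names doxycycline for every library, so this reading rests on the words plus and minus. No shRNA number stands in the title of plus replicate 1, which was put in the sh1 line by elimination. Doxycycline-treated cells lacking the hairpin were not analysed here, and SAE2 mRNA is not measured in miRNA libraries.

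miR-7 is an ancient miRNA known for its role in neurons and in hormone-secreting cells, and it is known to repress EGFR and components of insulin and growth factor signalling. Its main strand can be made from 3 human hairpins, MIR7-1, MIR7-2 and MIR7-3. Drosha and Dicer cut a hairpin into a duplex, from which one strand is mostly kept on an Argonaute protein and the other mostly lost. The circular RNA CDR1-AS carries many sites for miR-7, and miR-671 directs the cutting of CDR1-AS.

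The mature sequences show why the main strand cannot be traced to its hairpin while the minor strands can. All 3 members matched the RefSeq table (GRCh38.p14). The seed, bases 2 to 8, is in capitals, and sequences are written 5′ to 3′.
miR-7-5p: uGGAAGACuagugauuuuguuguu
miR-7-1-3p: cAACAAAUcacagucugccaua
miR-7-2-3p: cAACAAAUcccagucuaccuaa
Both minor strands shared the seed AACAAAU, and the seed of miR-7-5p, GGAAGAC, belonged to no other of the 2370 mature names in that table. Counted from the 5′ end, miR-7-2-3p differed from miR-7-1-3p at 4 of 22 bases, namely A10C, G17A, A20U and U21A. A read of a full minor strand therefore names its copy.

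In GRCh38, MIR7-1 lies on the minus strand of chromosome 9 at chr9:83969748-83969857, inside HNRNPK, which encodes an RNA-binding protein. It was intronic in 6 of the 7 HNRNPK transcripts of GENCODE release 29 that span it and exonic in 1. Its main strand is at chr9:83969811-83969834 and its minor strand at chr9:83969771-83969792. MIR7-2 lies on the plus strand at chr15:88611825-88611934, where GENCODE lists the miRNA gene MIR3529 on the opposite strand and no host gene. MIR7-3 lies on the plus strand at chr19:4770670-4770779, in introns of the long non-coding RNA MIR7-3HG in all 9 transcripts that span it. The hairpins of the last 2 copies, with the main strand in capitals, carry the same 24 bases.
MIR7-2: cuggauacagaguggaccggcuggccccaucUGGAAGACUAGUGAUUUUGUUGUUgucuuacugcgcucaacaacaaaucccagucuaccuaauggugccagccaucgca
MIR7-3: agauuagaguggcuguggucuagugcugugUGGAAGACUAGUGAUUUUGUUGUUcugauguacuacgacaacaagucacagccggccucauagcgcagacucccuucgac
In MIR7-3 the stretch most like miR-7-1-3p differed from it at 5 of 22 bases and did not hold its seed. A minor strand of MIR7-3 was not analysed here.

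miR-7-5p was one of the strongest signals in these cells. Its normalised read count is the authors' value per miRNA, inferred to be reads multiplied by a factor for each library. The count was 467038 and 499140 in plus replicates 1 and 2, against 632923 and 597121 in minus replicates 1 and 2. This was 4.75% ± 0.00299 of the total in the plus and 6.29% ± 0.192 in the minus libraries (SD, n = 2 each). It ranked 4th in both plus and 3rd in both minus libraries, changing places with miR-221-3p. By mean over the 4 libraries, miR-7-5p followed miR-21-5p, miR-100-5p and miR-221-3p, and miR-31-5p at 330562 was the last of the 5 most abundant and let-7f-5p at 272173 the first outside them.

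The main strand was lower in both plus than in both minus libraries. Such a separation of 2 against 2 libraries has an exact permutation p of 0.333. How many of all miRNAs tested show it was not counted. miR-7-5p averaged 483089 ± 22700 in the plus and 615022 ± 25316 in the minus libraries (SD, n = 2 each), a difference of -131933 normalised counts. The log2 change, plus over minus, was -0.35 with a standard error of 0.085, a fold of 0.785 (95% interval 0.698 to 0.884, limma, adjusted p = 0.00134). Of the 709 miRNAs tested, with a mean of at least 10, 28.5% passed the adjusted p threshold of 0.05, so a call alone is common here. They were 95 rises (13.4%) and 107 falls (15.1%), and which direction was more frequent depended on the scaling. The split was 107 rises and 93 falls with median-ratio size factors, 68 and 107 with equal totals, and 63 and 115 when totals were equalised over all miRNAs other than miR-7-5p. None of the 20 most abundant miRNAs fell by more than miR-7-5p, and 3 of these 20 fell while 6 rose. Among the 50 most abundant, 2 had a larger fall than miR-7-5p, and among the 100 most abundant 8 did. Levels of bulk RNA cannot tell fewer expressing cells from less RNA per cell.

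The call of miR-7-5p was lost with any library left out, at a limma adjusted p of 0.0638 (plus replicate 2 left out), 0.108 (plus replicate 1), 0.147 (minus replicate 2) and 0.288 (minus replicate 1). It was also lost with no minimum level (adjusted p = 0.1001) and without a mean-variance trend (adjusted p = 0.145), and an exact permutation of 2 against 2 libraries cannot give a p below 0.333.

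**Figure D1:**
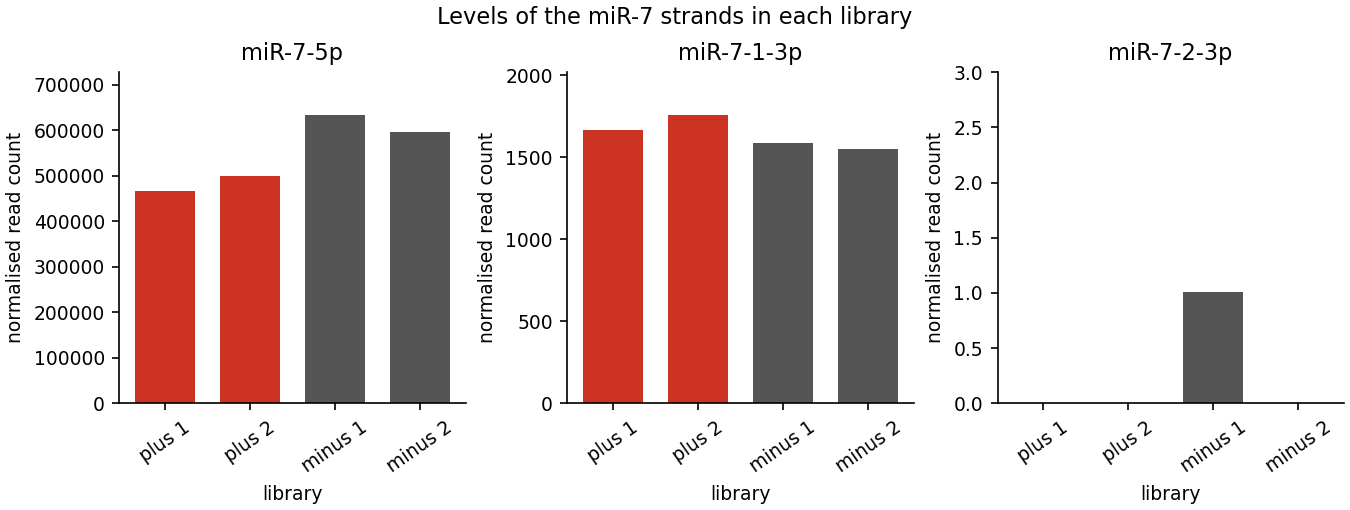
Normalised read count (vertical axes from 0, a different scale for each strand) of miR-7-5p, miR-7-1-3p and miR-7-2-3p in each of the 4 libraries, plus in red and minus in grey. miR-7-5p lies lower in the plus libraries (467038 and 499140) than in the minus libraries (632923 and 597121), miR-7-1-3p lies between 1551 and 1755, and miR-7-2-3p is above 0 in minus replicate 1 only.

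The minor strand of the HNRNPK copy did not fall with the main strand. miR-7-1-3p had 1669 and 1755 normalised counts in plus replicates 1 and 2, against 1585 and 1551 in minus replicates 1 and 2. Both plus values were above both minus values, again with an exact permutation p of 0.333. The means were 1712 ± 61.1 in the plus and 1568 ± 24.2 in the minus libraries (SD, n = 2 each). The log2 change of 0.13 ± 0.103 (standard error) did not pass (limma, adjusted p = 0.383). Its 95% interval, a fold of 0.944 to 1.26, lies above the fold of 0.785 of the main strand. In the order of levels, miR-7-1-3p ranked between 148th and 153rd in the 4 libraries.

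miR-7-2-3p, the minor strand of the chromosome 15 copy, was at the edge of detection. It was listed at 0 in both plus libraries, at 1.01 in minus replicate 1 and at 0 in minus replicate 2, which is about 1 read in all, under the floor of 3 reads (2.84 to 3.08 normalised counts). No fold is given for it. Among the about 6557 estimated reads that could be given to either copy by their minor strand, miR-7-2-3p made up 0.0153%. The 95% exact Clopper-Pearson interval was 0.000386% to 0.0849%, which treats the estimated reads as counts and covers counting error only. In the 3 libraries without a read, the floor allows it up to 0.175% to 0.185% of the minor-strand reads. Minor strands measure what is left of each duplex, so this share is of minor-strand reads and is not a share of miR-7-5p.

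**Figure D2:**
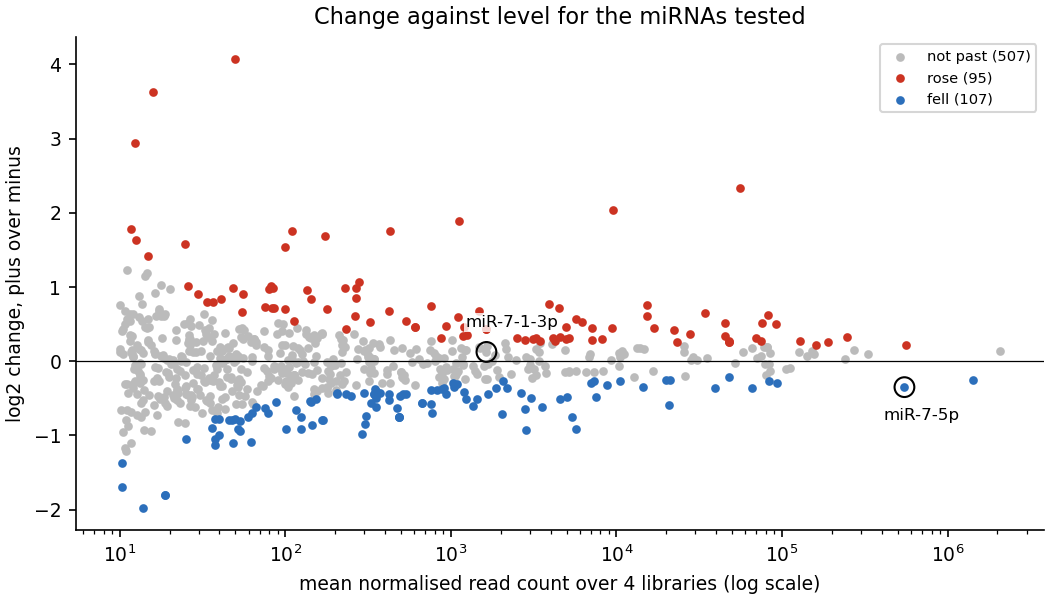
Log2 change, plus over minus, of the 709 miRNAs tested against their mean normalised read count on a log scale, with 95 rises in red, 107 falls in blue and the others in grey. The circled miR-7-5p lies far to the right at -0.35 and the circled miR-7-1-3p at 0.13, among miRNAs that did not pass.

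Because the strands are counted in the same library, their ratio is the same whatever factor each library is multiplied by. miR-7-1-3p stood at 3.57 and 3.52 per 1000 miR-7-5p in plus replicates 1 and 2, against 2.50 and 2.60 in minus replicates 1 and 2. The plus ratios were close to each other and both above the minus ratios, with an exact permutation p of 0.333. Put the other way, there were 282 ± 3.19 main strands per minor strand in the plus and 392 ± 10.1 in the minus libraries (SD, n = 2 each). The ratio of minor to main strand rose by 0.47 ± 0.10 on the log2 scale (standard error), a fold of 1.39 (95% interval 1.21 to 1.59, limma over 211 strand pairs, adjusted p = 7.73e-05). Of the pairs, 24.2% passed in either direction and 11.4% rose, while 12.8% fell. The denominator can come from all 3 copies, and the copy behind a main strand is not measured.

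The call of this ratio was kept without minus replicate 2 (limma adjusted p = 0.0419) and lost without plus replicate 2 (0.0552), minus replicate 1 (0.0811) or plus replicate 1 (0.0939). With the shRNA line as a replicate block its adjusted p was 0.0714, with no minimum level 0.0596 and without a trend 0.117, while the log2 change lay between 0.37 and 0.50 in the settings tried.

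**Figure D3:**
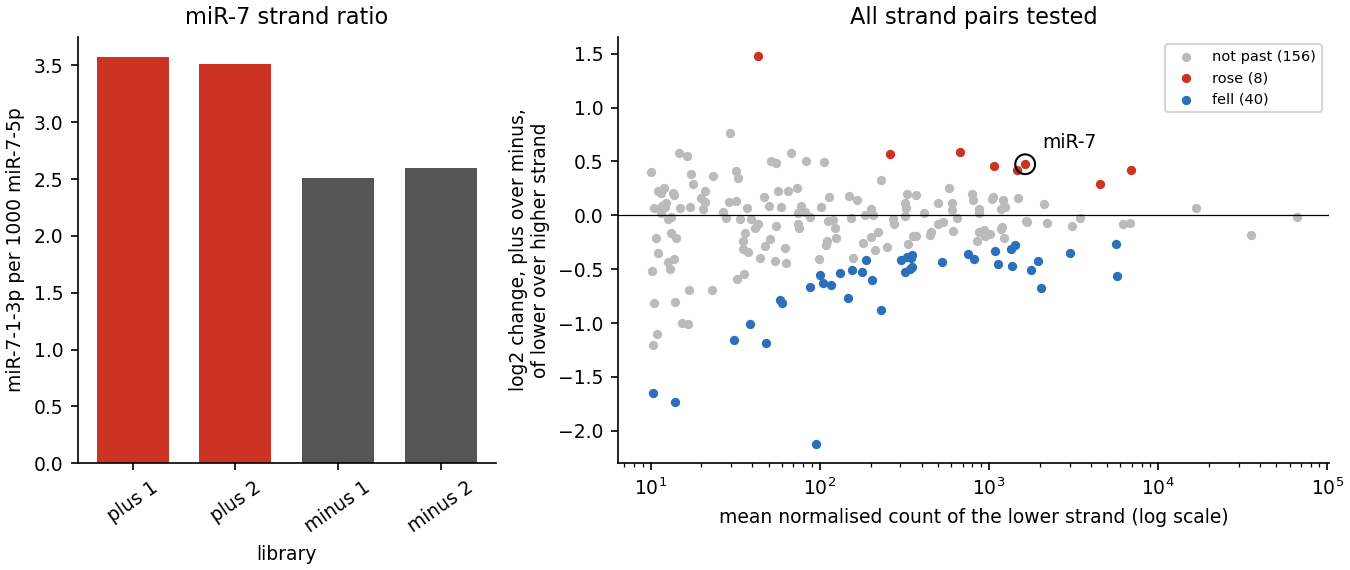
Left, miR-7-1-3p per 1000 miR-7-5p in each library (axis from 0), at 3.57 and 3.52 in the plus libraries (red) and 2.50 and 2.60 in the minus libraries (grey). Right, log2 change, plus over minus, of the lower over the higher strand for 204 strand pairs against the level of the lower strand on a log scale. miR-7 (circled, 0.47) is among 8 rises (red), with 40 falls in blue.

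When every pair was written as lower over higher strand, 8 of 204 rose (3.92%) and 40 fell (19.6%), with a median log2 change of -0.08, and miR-7 had the 12th highest value. The calls of strand pairs depended on the fit. Over the pairs as named, the main fit gave 24 rises and 27 falls. A minimum mean of 1 gave 24 and 26, a minimum mean of 100 gave 17 and 19, and quantile normalization gave 21 and 17. With no minimum level there were 0 rises and 4 falls, and without a trend 0 and 0. With the line as a block no strand pair passed (limma, 0 rises and 0 falls among 211, with 57 at an unadjusted p under 0.05). Fewer pairs passed with 1 library left out. Among the 34 higher strands that fell and had a tested partner, the partner fell in 10 and did not pass in 24, with a median log2 change of -0.29 for the partners. The partner's log2 change was below 0 in 30 of these 34 pairs, and miR-7-1-3p was among the 4 exceptions. These pairs were chosen by a fall of the higher strand in these same data, which by itself favours a rise of the ratio. Beside 8 rises among all 204 pairs, the ratio rose in 5 of the 34, miR-7 included. The other 4, named after their values were seen, were miR-3942 (1.48), miR-340 (0.59), miR-18a (0.46) and miR-106b (0.42).

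The strands also differed widely in level, given as a description only, since the level of miR-7-5p chose the family and a high value here was favoured by that choice. The mean of its main strand exceeded that of miR-7-1-3p by 8.39 on the log2 scale, rank 23 of 204 pairs, against a median of 3.43 between higher and lower strand over all pairs.

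Other miRNAs with a shared main strand and copy-numbered minor strands gave a comparison, with minor and main taken from the names and not from the levels. miR-219-1-3p, at a mean of 64.8, lay above miR-219-5p at 44.4, and miR-550a-3-5p at 355 was not far below miR-550a-3p at 426. Of 21 such ratios of minor to main strand, that of miR-7-1-3p was the single rise, 8 fell and 12 did not pass, with a median log2 change of -0.20. Over the 204 pairs written as lower over higher strand, the median was -0.08, with 3.92% rises and 19.6% falls. The 6 with the most abundant minor strands, apart from miR-7, were miR-24-2-5p at -0.02, miR-125b-1-3p at -0.67, miR-16-2-3p at -0.19, miR-30c-1-3p at -0.19, miR-550a-3-5p at -0.20 and let-7a-2-3p at -0.48. Of these, the ratios of miR-125b-1-3p (limma, adjusted p = 3.17e-09) and let-7a-2-3p (adjusted p = 0.00436) fell, and neither passed with the line as a block (adjusted p = 0.0600 and 0.0714). The call of miR-125b-1-3p was lost without plus replicate 1 (limma adjusted p = 0.0668) and kept with any other library left out. That of let-7a-2-3p was lost with any library left out (limma adjusted p = 0.0645 to 0.258) and under quantile normalization (0.137). The ratio of miR-181a-2-3p, chosen after its value was seen, fell by 2.12. Whether the miR-7 ratio differs from these was not tested.

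Where both copies of a minor strand reached the level needed for a test, in 7 pairs, 1 ratio of copy to copy rose and 2 fell. The miR-7 copies could not be set against each other in this way, since miR-7-2-3p lay below that level. A second copy was near the floor elsewhere too, with means of 2.02 for miR-125b-2-3p and 2.02 for miR-19b-2-5p.

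**Figure D4:**
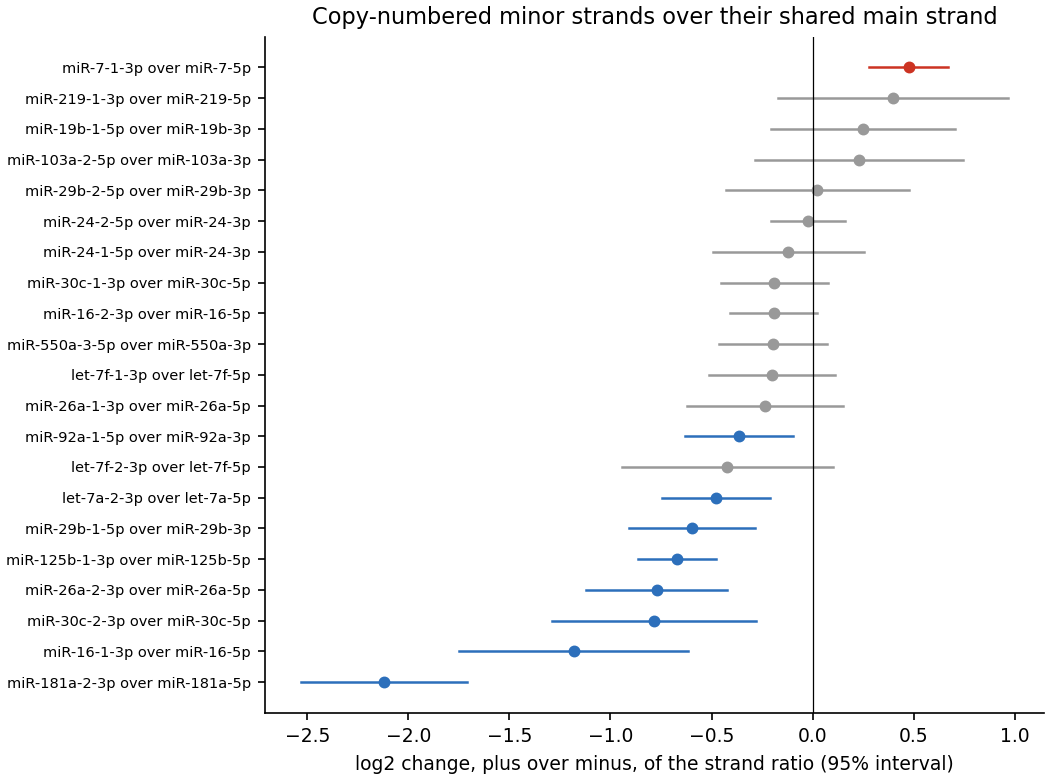
Log2 change, plus over minus, of the ratio of each copy-numbered minor strand to its shared main strand (minor and main by name) for 21 pairs, with 95% intervals from limma, 1 rise in red, 8 falls in blue and the others in grey. miR-7-1-3p is at the top at 0.47 and miR-181a-2-3p at the bottom at -2.12.

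Within each shRNA line, with a single library in each condition and so no test, the values went the same way in both. That direction was fixed by the separation of plus and minus values given above, whichever libraries are paired, and is no further support. miR-7-5p in the plus library was 0.738 of the minus library in the sh1 line and 0.836 in the sh2 line. miR-7-1-3p was 1.05 of the minus library in the sh1 line and 1.13 in the sh2 line. The ratio of minor to main strand was 1.43 and 1.35 times that of the minus library in the sh1 and sh2 lines.

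The 5 profiles nearest to miR-7-5p were sought among 189 other miRNAs with a mean of at least 1000, by the Euclidean distance of log2(value + 1), centred on its mean, over the 4 libraries. miR-17-5p, a member of the MYC-responsive miR-17-92 cluster, was nearest at a distance of 0.0156, against a median of 0.448 over all candidates. It had 33435 and 35396 normalised counts in plus replicates 1 and 2, against 45566 and 42727 in minus replicates 1 and 2. Next came miR-335-5p, from an intron of the imprinted gene MEST, at 0.0524, miR-3158-3p at 0.0534, miR-548e at 0.0572 and miR-576-3p at 0.0853. Their log2 changes lay between -0.36 and -0.30, and each fell, although none of these 5 calls was kept without plus replicate 1, plus replicate 2 or minus replicate 1. All 6 miRNAs were highest in minus replicate 1 and lowest in plus replicate 1. The 5 were chosen for values like those of miR-7-5p, so their changes, calls and this order follow from the choice. They are a description and not a further result. The likeness rests on 4 libraries that share their scaling.

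**Figure D5:**
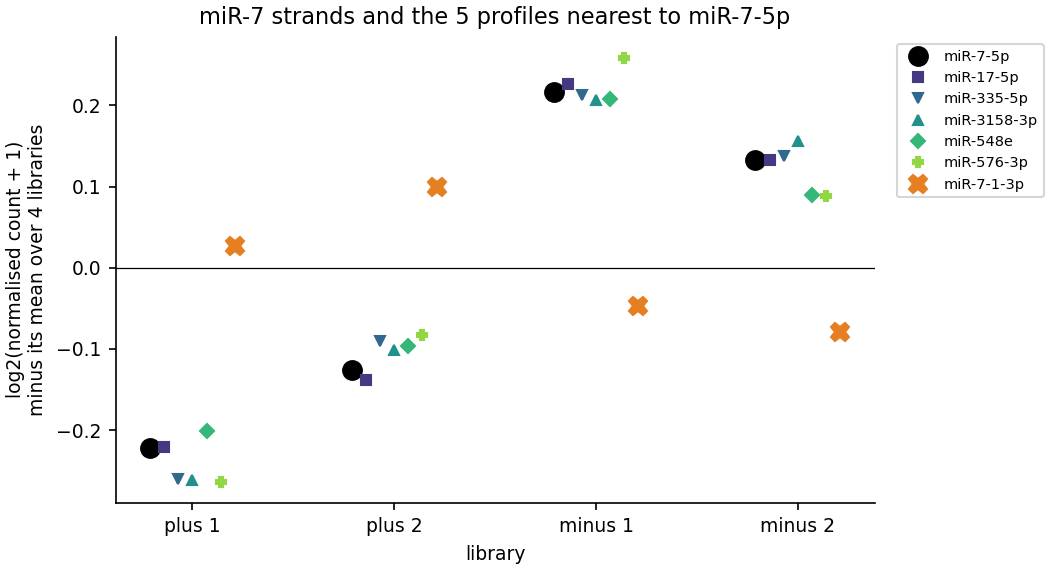
log2(normalised read count + 1) minus its mean over the 4 libraries (vertical axis) in each library for miR-7-5p (black circles), the 5 nearest profiles and miR-7-1-3p (orange crosses). miR-7-5p and its neighbours lie below 0 in the plus and above 0 in the minus libraries, and miR-7-1-3p the other way round.

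miR-7 was then set beside lists of miRNAs tied to it by function or position. Over all 709 miRNAs tested, 13.4% rose and 15.1% fell, and no list was tested against these shares. In the list of the CDR1-AS circuit, miR-7-5p itself was the only one of 3 strands to pass. miR-671-5p stood at 3397 and 3469 in the plus and 3423 and 3403 in the minus libraries, with a log2 change of 0.01 (95% interval -0.18 to 0.20, limma, adjusted p = 0.953) whose sign turned with the scaling, and miR-671-3p had 0.19 (adjusted p = 0.319). Of 8 tested among 11 neuronal and endocrine miRNAs, 2 rose and none fell, with a median of 0.14 against -0.03 over all 709 miRNAs. The risers were the strands of the neuronal miRNA miR-9, miR-9-5p (log2 change 0.44, limma adjusted p = 5.65e-05) and miR-9-3p (0.37, adjusted p = 0.000687), and neither call was kept without plus replicate 1 or plus replicate 2, nor that of miR-9-3p without minus replicate 2. miR-375, which acts in pancreatic islets as miR-7 does, had 0.24 (adjusted p = 0.0537, and 0.0272 with the line as a block), and miR-128 had -0.06 (adjusted p = 0.644).

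Of 9 miRNAs reported to target EGFR or the insulin and IGF receptor pathway, 7 were tested, of which 2 rose and 3 fell, miR-7-5p included, with a median of -0.11. The shares over all 709 miRNAs were 13.4% rises and 15.1% falls. miR-145-5p and miR-146a-5p (log2 change 0.99, which rose) are named after their values were seen. miR-100-5p, a regulator of IGF1R and MTOR, was at -0.25 (limma, adjusted p = 0.0427) and miR-145-5p, a regulator of IRS1, at -0.29 (adjusted p = 0.0125), and miR-27a-3p was at 0.51 (adjusted p = 1.31e-05). The call of miR-100-5p was lost with any library left out, and its log2 change was -0.08 without plus replicate 1, -0.41 without plus replicate 2 and 0 under quantile normalization. The call of miR-27a-3p was lost without either plus library. Among 23 miRNAs that lie in introns of genes, miR-7-1-3p included, 4 rose, 4 fell and 15 did not pass, with a median of 0.04. This stands beside the same 13.4% rises and 15.1% falls over all miRNAs tested. The most abundant were miR-26a-5p at 0.32 (adjusted p = 0.00216), which rose but lost its call with any library left out, and miR-186-5p at 0.14, miR-26b-5p at -0.19 and miR-103a-3p at 0.19, which did not pass. With the line as a block miR-26b-5p (limma adjusted p = 0.0480) and miR-103a-3p (0.0401) passed, and miR-26b-5p also passed with equal totals (0.0258), with totals without miR-7-5p (0.0170) and under quantile normalization (0.0338).

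Across the series, normalised totals were 9833885 and 10519207 in plus replicates 1 and 2, against 9847531 and 9700472 in minus replicates 1 and 2, and 1133 to 1180 miRNAs per library lay above 0.5. Over all 709 miRNAs tested, 13.4% rose and 15.1% fell, and no marker set was tested against these shares. The 9 epithelial and colon markers, among them miR-200c-3p at 119446 to 135723, were all tested, and 5 rose and none fell. Their summed level was 2678140 to 2914920 in the plus and 2490420 to 2588570 in the minus libraries, and that of 7 neuronal markers, of which 5 were tested and 1 rose, was 29348 to 30902 in the plus and 25033 to 25834 in the minus libraries. For 7 blood markers, of which none of the 4 tested passed, it was 1027 to 1205 in the plus and 995 to 1212 in the minus libraries, and for 5 stromal and endothelial markers, of which 2 rose and 1 fell, it was 14095 to 16912 in the plus and 16425 to 16495 in the minus libraries. The blood marker miR-144-3p was at 0 in 1 library of each condition, while the blood marker miR-486-5p stood at 789 to 1014. The neuronal marker miR-124-3p was at 31.8 and 22.5 in the plus and 13.1 in both minus libraries, and did not pass (limma, adjusted p = 0.0514). Of the other neuronal markers tested, miR-9-5p rose (log2 change 0.44), while miR-128 (-0.06), miR-153 (-0.26) and miR-218-5p (0.05) did not pass. The part of these markers in the miR-7 results was not tested.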

How the data were processed

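The authors deposited, for 4 libraries, one normalised signal value per mature miRNA. That these are reads multiplied by a factor for each library was inferred from small values, which in each library fell near multiples of 0.945 to 1.028. Between 86.5% and 100% of values up to 60 came within 0.1 of whole reads, too few in some libraries to recover exact counts. Read numbers are therefore rounded estimates, and no count model was fitted to test changes. Dividing by that step gave 9566036 to 10302847 estimated reads per library. Per the labels, the sample titles carry the word cutadapt. Per the submitters' processing notes, TopHat2 2.0.8b and edgeR were tools and hg19 and GRCh37 builds, without roles. How reads were counted, and against which annotation, is not given in the sources used here. Columns writing sh4 were matched to titles writing sh2 by library number and index.

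limma 3.58.1 (R 4.3.3) with a mean-variance trend was run on log2(value + 1), which understates changes of low miRNAs, for 709 rows with a mean of at least 10, two-sided, with Benjamini-Hochberg adjustment. Strand pairs (both strands at a mean of at least 10) were fitted as log2 differences within a library, the trend taken on the lower strand, with the spread pooled over all pairs. Both fits were also run on simulated data, drawn with the same dispersion for every miRNA and no difference between lines. That setting is simpler than these data, so the run does not vouch for the p-values given here. Libraries of a condition come from 2 lines, so the spread behind the p-values is between lines, but it is mostly pooled over other miRNAs. The prior had 43.0 degrees of freedom, against 2 from each miRNA itself. In the pair fit the prior was infinite, so the spread of the miR-7 ratio itself did not enter its p-value. Chi-square per degree of freedom between replicates (68.7 plus, 19.9 minus) was far above that of sampling noise. Same-numbered libraries share a line (plus replicate 1 by elimination), and the correlation of their deviations over 709 miRNAs was 0.0555.

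The members and lists were chosen with earlier results of these data known. The miRNAs named are the members, the 5 most abundant, up to 4 of the most abundant of each list, the 5 profiles nearest to miR-7-5p and the 6 most abundant other copy-numbered minor strands. Alternatives were pseudocounts, level minimums, scalings, no trend, the line as a block and each library left out, and, added after the data were seen, totals without miR-7-5p and a pair trend on both strands.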

Additional observations from a re-analysis of the deposited data

How the results depend on the processing

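miR-7-5p stayed below 0 and the ratio of miR-7-1-3p to miR-7-5p above 0 in every setting tried, and miR-7-1-3p passed in none. With no minimum level there were 5 rises and 0 falls among miRNAs and 0 rises and 4 falls among strand pairs (limma, 311 miRNAs and 69 pairs at an unadjusted p under 0.05), with miR-7-5p at -0.35 and the ratio at 0.47, neither past. Without a trend there were 5 rises and 0 falls, and 0 rises and 0 falls among pairs (219 and 54 unadjusted), with the same changes of -0.35 and 0.47, neither past. With the replicate block, pairs had 0 rises and 0 falls (57 unadjusted), with the ratio at 0.47, and the miRNAs 103 and 113. Which property of these fits ends the calls was not tested. Quantile normalization, where values are set by rank, gave 47 rises and 54 falls, and 17 falls among pairs. A minimum mean of 1 gave 60 falls, and totals without miR-7-5p 63 rises. With 1 library left out, rises and falls were 6 and 1 (without plus replicate 1), 7 and 1 (plus replicate 2), 57 and 38 (minus replicate 1) or 56 and 59 (minus replicate 2), pairs from 0 to 5 rises and 0 to 6 falls (40 to 72 unadjusted), miR-7-5p from -0.40 to -0.30 and the ratio from 0.45 to 0.50. Changes of sign came only in values that did not pass: miR-671-5p at -0.0490 with equal totals, -0.0273 under quantile normalization, -0.0726 with totals without miR-7-5p and from -0.00681 to 0.0236 with 1 library left out, and the ratios of miR-24-2-5p at 0.11, miR-16-2-3p at 0.0519 and miR-30c-1-3p at 0.0144 under quantile normalization and of miR-550a-3-5p from -0.43 to 0.0348 with 1 library left out. Of the other named miRNAs and ratios, 257 values kept direction and side of the threshold, 73 lost it and 7 gained it, namely miR-375 under median-ratio scaling (adjusted p = 0.0326) and with the block (0.0272), miR-103a-3p with the block (0.0401), and miR-26b-5p with the block (0.0480), with equal totals (0.0258), with totals without miR-7-5p (0.0170) and under quantile normalization (0.0338). Depth limits miR-7-2-3p, at about 1 read in all 4 libraries.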
